A study of Mus musculus with 14 samples.

Results

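Donor CD4+ T cells with low surface PSGL1 (PSGL1lo), sorted from the liver of mice with chronic graft-versus-host disease (cGVHD), were compared with PSGL1lo cells sorted from the spleen of such mice. The comparison used 4 of the 14 RNA-seq libraries of the series, 2 from liver and 2 from spleen, taken by their titles. The recipients were BALB/c mice given T-cell-depleted bone marrow together with splenocytes from C57BL/6 donors, and cells were harvested 30 days after haematopoietic cell transplantation (HCT). No age of the mice is given in the sources used here. Both groups had the recipient strain, the graft, the day and the sort for donor-derived PSGL1lo CD4+ T cells in common, and by label they differed only in the organ. Lung PSGL1lo cells and the PSGL1hi cells of liver and spleen from the same kind of cGVHD recipients were used beside them, with 2 libraries a group.

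PSGL1, encoded by Selplg, is the ligand with which T cells catch on P-selectin and E-selectin of the vessel wall. Tissue-resident T cells stay in an organ by lowering the exit receptors S1PR1 and CCR7 and by making molecules such as CD69, CD49a (Itga1), CD103 (Itgae) and CXCR6. Follicular helper T cells are the CD4+ cells that help B cells, through CD40 ligand and IL-21 and under the transcription factor BCL6. In cGVHD donor CD4+ T cells drive B cell activation, autoantibody production and damage to organs such as liver and lung.

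Organ and library series cannot be told apart here. The library numbers in the labels put the 6 spleen libraries in 1 unbroken run and the 8 liver and lung libraries in another, with higher numbers, so every liver-to-spleen difference below is also a difference between library series. Depth was 33532595 and 23054577 counts in liver PSGL1lo and 13283091 and 14905806 counts in spleen PSGL1lo. The sample tag that ends the name of liver PSGL1lo replicate 1 lies outside the run of tags of the other liver and lung libraries, and the labels give no reason. That library had the fewest genes detected, 14036 against 14824 to 15445 in the others, and the most counts. Levels are in CPM, counts relative to the scaled library total, and 3 counts in a library served as the floor of detection. Histone and small RNA genes took 0.431% to 1.4% of counts in the liver and lung libraries, against 5.16% to 7.65% in the spleen libraries, and these genes are left out of all counts and descriptions. With genes ranked by GC content in 5 equal groups, the median log2 difference of liver over spleen ran from -0.42 in the most AT-rich group to 0.28 in the most GC-rich group, against 0.002 over all genes. The liver replicates stood further from each other than the spleen replicates, with coefficients of variation beyond counting error of 12.2% in liver and 5.98% in spleen. Nothing in the labels says whether replicates came from separate mice, so p-values measure a spread between libraries, which may be technical. That spread was estimated over all 14 libraries, with a common coefficient of variation of 7.35%, below that of the liver replicates. In such bulk libraries fewer cells of a type and less RNA per cell cannot be told apart.

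The sorted cells carried the transcripts of CD4+ T cells in both organs. Cd4 was at 2571 and 2551 CPM in liver and at 1633 and 1530 CPM in spleen. Cd3e, a subunit of the T cell receptor complex, was at 1283 and 1100 CPM in liver, 1168 and 1200 CPM in lung and 294 and 285 CPM in spleen, so the lung level lay near that of the liver. Of 12 genes of CD4+ T cell identity 10 rose in liver and 1 fell, with a median log2 difference of 0.62. The gene that fell was Cd28, the main costimulatory receptor, at 317 and 365 CPM in liver and 780.4 and 834 CPM in spleen.

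The difference between the organs covered much of the transcriptome. Of 13531 genes tested, 7741 (57.2%) passed an adjusted p of 0.05 (edgeR quasi-likelihood test, Benjamini-Hochberg adjustment, as for all adjusted p below), with 3954 higher (29.2%) and 3787 lower (28%) in liver. Against a change of 1.5-fold, 3019 genes (22.3%) passed, 1317 of them higher (9.73%) and 1702 lower (12.6%) in liver. The liver libraries did not overlap the spleen libraries for 75.2% of genes. The same organs compared in PSGL1hi cells, with no library in common, gave 7783 called genes (57.5%), 3925 higher (29%) and 3858 lower (28.5%). Of the genes that rose in liver PSGL1lo cells 3115 also rose in liver PSGL1hi cells, which is 78.8% of the PSGL1lo list and 79.4% of the PSGL1hi list. A further 2890 genes fell in both, which is 76.3% of the PSGL1lo list and 74.9% of the PSGL1hi list. In opposite directions, 19 genes rose in PSGL1lo and fell in PSGL1hi cells, and 35 fell in PSGL1lo and rose in PSGL1hi cells. The PSGL1hi libraries belong to the same pair of library series, so whatever the series share is part of this overlap. Lung against spleen PSGL1lo cells, which shares the spleen libraries, gave 8061 called genes (59.6%), 4081 higher (30.2%) and 3980 lower (29.4%) in lung. The gene lists below are read against the shares of all genes, 29.2% higher and 28% lower.

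**Figure D1:**
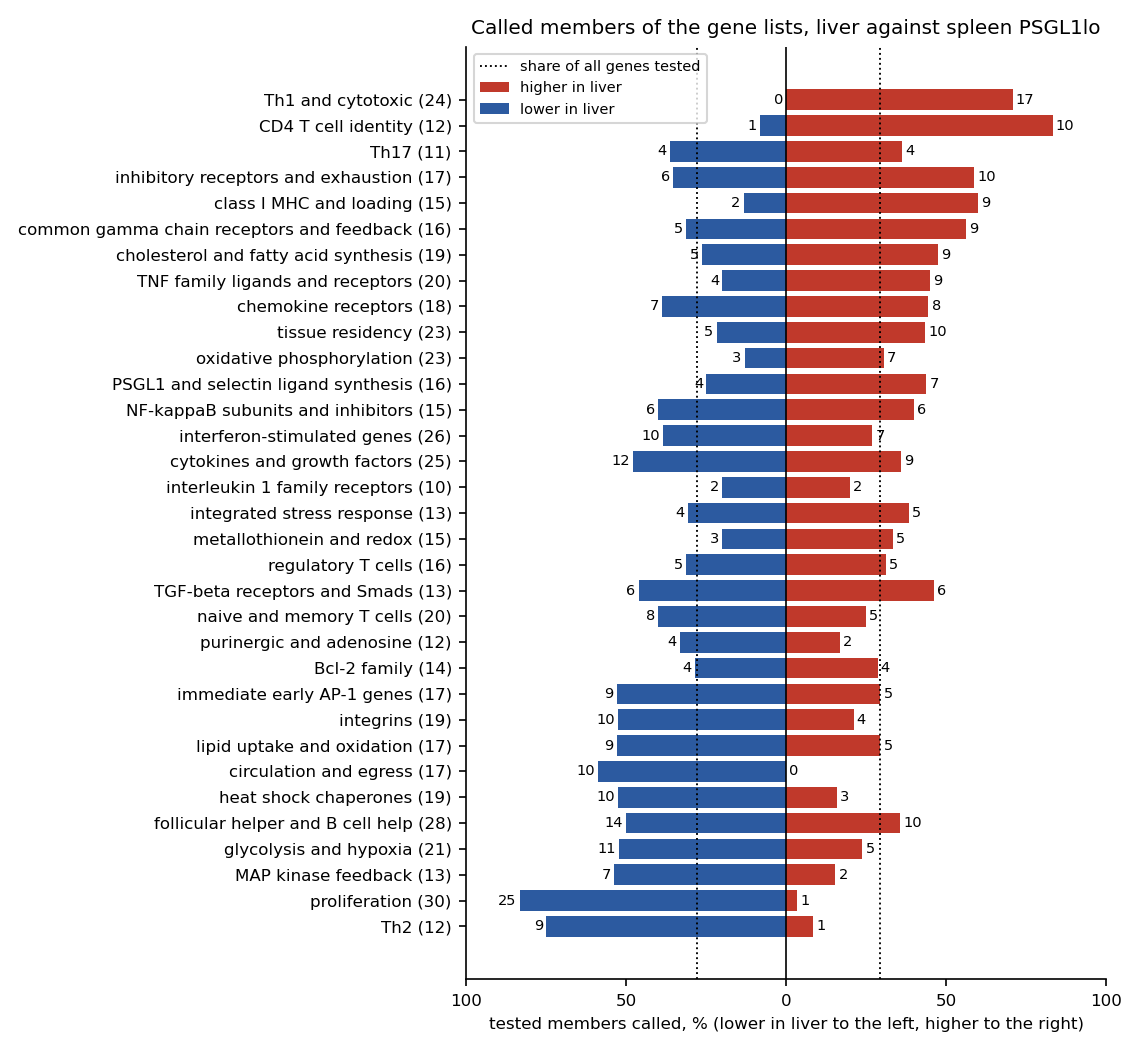
Percent of the tested members of each gene list shown called lower (left) and higher (right) in liver than in spleen PSGL1lo cells, with the number of called members at the bar ends. The Egr and Nr4a list and the lists of other cell types are not shown. Dotted lines mark the shares of all genes tested, 28% lower and 29.2% higher, and the Th1 and cytotoxic list has 17 members higher and 0 lower while the proliferation list has 1 higher and 25 lower.

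Selplg transcript was higher in the liver PSGL1lo cells, although both groups were sorted on low surface protein. It stood at 612 and 540.2 CPM in liver and at 280.5 and 238 CPM in spleen, a log2 difference of 1.15 ± 0.09 (SE, adjusted p = 6.4e-10), and at 383 and 456 CPM in lung. Of 16 genes for PSGL1 and for the sugars that let it bind selectins, 7 rose and 4 fell. Those that rose included 3 sialyltransferase genes, of which St3gal3 was at 26.03 and 25.6 CPM in liver and 13.04 and 10.5 CPM in spleen. Those that fell included Gcnt1, which starts the branched O-glycan that carries the selectin-binding sugar, at 10.6 and 9.52 CPM in liver and 22.8 and 26.6 CPM in spleen. C1galt1c1, a chaperone of O-glycan synthesis, was called lower, at 16.5 and 15.2 CPM in liver and 22.6 and 22.7 CPM in spleen. That call was lost, with a log2 difference of 0.28 (adjusted p = 0.11), once the counts were corrected for GC content, an alternative chosen after seeing the data.

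Genes of tissue residency did not move as 1 block. Of 23 tested, 10 rose and 5 fell in liver, with a median log2 difference of 0.13. The largest increases were those of the chemokine genes Xcl1 and Ccl5, the E-cadherin gene Cdh1, the transcription factor gene Runx3, which promotes CD103, and Itga1. Itga1, a collagen-binding integrin chain, was at 59.4 and 80.2 CPM in liver and at 14.1 and 17.3 CPM in spleen, a log2 difference of 2.14 ± 0.13 (adjusted p = 1e-11). Itgae, whose product binds E-cadherin, was at 30.6 and 30.4 CPM in liver and at 11.8 and 12.6 CPM in spleen. Both integrin genes were also above the spleen level in lung, at 45.9 and 40.05 CPM for Itga1 and 31.03 and 34.8 CPM for Itgae. Xcl1 was at 94.5 and 92.3 CPM in liver and 12.7 and 13.8 CPM in spleen, and Runx3 at 271 and 262 CPM in liver and 57.4 and 60.2 CPM in spleen. Cxcr6, a receptor that keeps T cells in liver sinusoids, rose by a log2 difference of 0.48 ± 0.08 (adjusted p = 1.8e-05), with 719 and 759.5 CPM in liver and 519.7 and 539 CPM in spleen.

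Cd69, whose product holds S1PR1 inside the cell, was lower in liver. It stood at 146 and 181 CPM in liver and at 322 and 335 CPM in spleen, a log2 difference of -1.01 ± 0.09 (adjusted p = 1e-08). Rgs1 and Rgs2, regulators of G protein signalling, fell by 0.89 and by 1.07 on the log2 scale, but the Rgs1 call was lost with the GC correction (-0.07, adjusted p = 0.42). Ahr and Ldlrad4 completed the 5 that fell, with log2 differences of -0.24 and -0.35. With only the groups compared in the fit, 3 fell. Ahr (-0.25, adjusted p = 0.078) and Ldlrad4 (-0.37, adjusted p = 0.056) then lost their calls. Without spleen replicate 1 the number that fell was 3, with Ahr at -0.12 (adjusted p = 0.34) and Ldlrad4 at -0.31 (adjusted p = 0.091). The Ahr call was also lost without liver replicate 1 (-0.22, adjusted p = 0.084), and that of Ldlrad4 without spleen replicate 2 (-0.36, adjusted p = 0.061). P2rx7, the ATP receptor common on resident T cells, was at 448.5 and 474 CPM in liver and 468 and 458 CPM in spleen, with overlapping groups (adjusted p = 0.97). Prdm1, encoding the residency factor BLIMP-1, did not pass (log2 difference 0.18, adjusted p = 0.11) but passed as higher with the GC correction (0.23, adjusted p = 0.039).

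Genes of circulation and egress were lower or not called. Of 17 tested, 10 fell and 0 rose in liver, with a median log2 difference of -0.27. S1pr1, the receptor that leads T cells out along sphingosine 1-phosphate, was at 48.7 and 52.3 CPM in liver and at 144 and 132 CPM in spleen, a log2 difference of -1.45 ± 0.10 (adjusted p = 3.5e-11). Ccr7, the receptor for entry into lymph nodes, was at 8.33 and 7.83 CPM in liver and at 27.5 and 26.4 CPM in spleen. Klf2, which switches S1pr1 on, was at 68.2 and 59.1 CPM in liver and at 96.98 and 86.7 CPM in spleen, a smaller log2 difference of -0.53 ± 0.14 (adjusted p = 0.0025). For all 3 the organs did not overlap, as for 75.2% of all genes. The number that rose was 1 without liver replicate 2, without spleen replicate 1 or without spleen replicate 2, and 3 with the GC correction.

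Other homing receptors divided. Of 18 chemokine receptors 8 rose and 7 fell. Ccr2, a receptor for inflammatory chemokines, rose and was at 145 and 177 CPM in liver against 89.98 and 90.2 CPM in spleen. Gpr183 and Cxcr4, which place cells within lymphoid organs and marrow, fell, with Gpr183 at 29.3 and 26.8 CPM in liver against 109.9 and 112 CPM in spleen and Cxcr4 at 127 and 122 CPM in liver against 339 and 334 CPM in spleen. The number of receptors that fell was 4 without spleen replicate 1. Cxcr3 was called higher by a log2 difference of 0.25 ± 0.07, a call lost without spleen replicate 2 (0.20, adjusted p = 0.065) and with the GC correction (0.05).

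Of 19 integrin genes 4 rose and 10 fell. Besides Itga1 and Itgae, both chains of LFA-1, the integrin that binds ICAM-1, rose. Itgal was at 2709 and 2809 CPM in liver and 1101 and 1104 CPM in spleen, and Itgb2 at 1653 and 1541 CPM in liver and 952 and 880.3 CPM in spleen. Itgb3, a chain of the vitronectin receptor, fell to 75.4 and 80.3 CPM in liver, against 201 and 194 CPM in spleen. Itgax, which is also a dendritic cell marker, was at 1.60 and 2.27 CPM in liver and 23.4 and 24.6 CPM in spleen, and the other dendritic cell genes are given below.

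**Figure D2:**
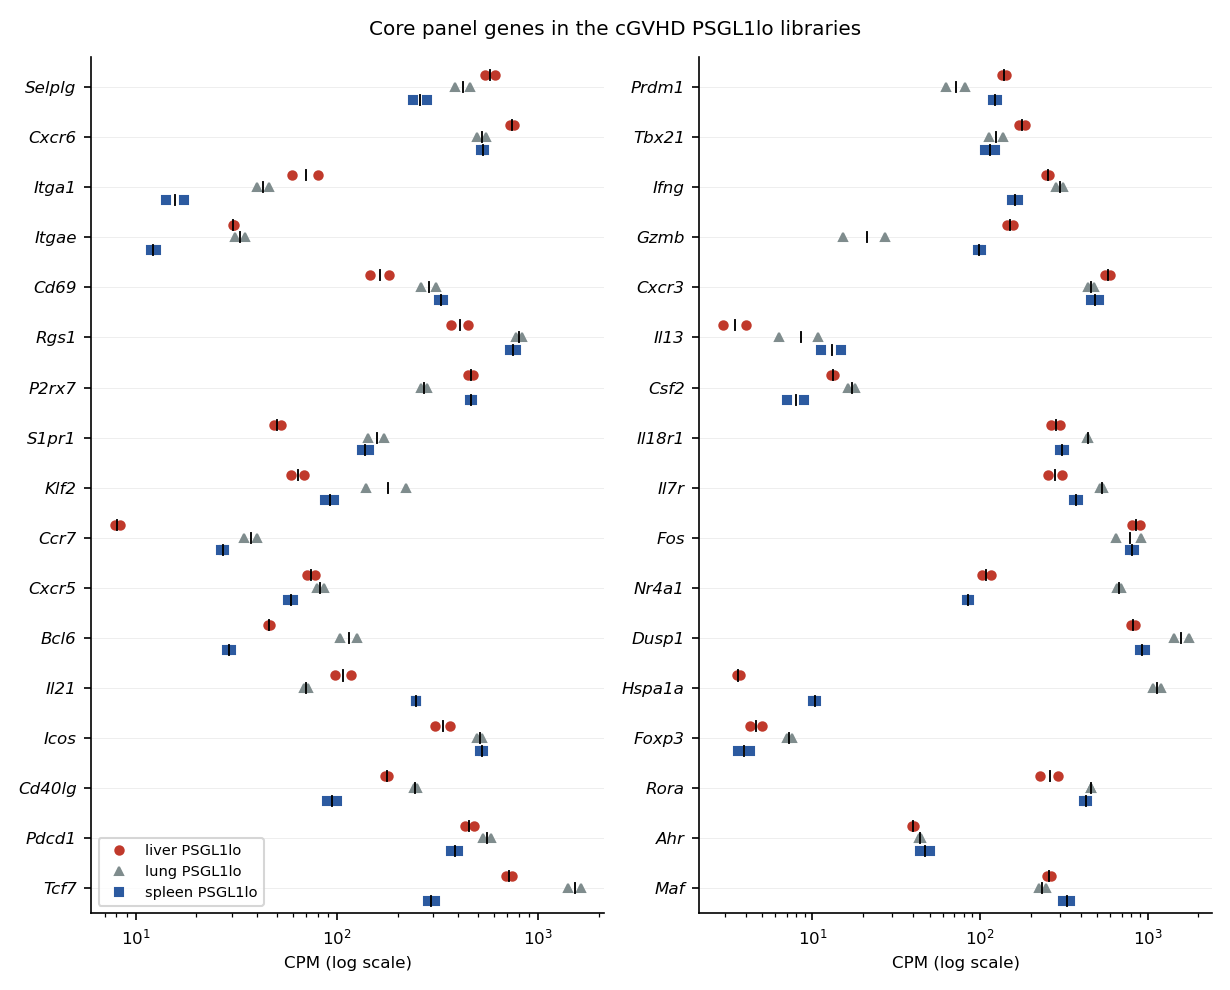
CPM on a log axis of measured genes of a core panel in each cGVHD PSGL1lo library of liver, lung and spleen, with a dot for each library and a bar at each group mean. Itga1 and Selplg lie higher in liver than in spleen, S1pr1 and Ccr7 lie lower, and Hspa1a lies far higher in lung, at 1076 and 1193 CPM, than in liver or spleen.

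Genes of follicular help were divided. Of 28 tested, 10 rose and 14 fell in liver, and the 27 with a mean of at least 1 CPM in the higher organ had a median log2 difference of -0.29. Transcription factor genes were among those that rose. Tcf7, encoding TCF-1, which sustains helper and memory T cells and is counted with the memory genes below, was at 736 and 691 CPM in liver and at 283 and 305 CPM in spleen, a log2 difference of 1.28 ± 0.08 (adjusted p = 6.7e-12), and at 1403 and 1623 CPM in lung. Bcl6 was at 45.5 and 46.1 CPM in liver and 28.3 and 29.8 CPM in spleen. Tox and Tox2, high-mobility-group factors of helper and chronically stimulated T cells, rose by log2 differences of 1.35 and 1.60.

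The signals of help differed in direction. Cd40lg, which licenses B cells, rose to 174 and 179 CPM in liver, against 89.2 and 99.7 CPM in spleen. Il21, the helper cytokine of germinal centres, fell to 97.8 and 117 CPM in liver, against 246 and 247 CPM in spleen, a log2 difference of -1.20 ± 0.09 (adjusted p = 2e-10). Il4 also fell, to 4.21 and 3.03 CPM in liver against 10.1 and 13.4 CPM in spleen. Among surface receptors of helper cells Icos fell to 307 and 364 CPM in liver against 531 and 515 CPM in spleen, and Btla and Il6ra fell by 1.22 and by 1.46 on the log2 scale. Cxcr5, the follicle-homing receptor, was at 77.5 and 70.6 CPM in liver and 60.6 and 56.9 CPM in spleen, and Pdcd1, encoding PD-1, at 478 and 429.6 CPM in liver and 397 and 369 CPM in spleen. Both were called higher, and both calls were lost with the GC correction (Cxcr5 0.19, adjusted p = 0.052; Pdcd1 0.03, adjusted p = 0.73). The Pdcd1 call was also lost without liver replicate 1 (0.17, adjusted p = 0.076) and without spleen replicate 2 (0.21, adjusted p = 0.058).

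Of 20 genes of naive and memory T cells 5 rose and 8 fell, with a median log2 difference of -0.11. Foxo1, a factor of quiescent T cells, rose with Tcf7, by a log2 difference of 0.85. Myb and Id3, which also support memory T cells, fell, with Myb at 8.96 and 8.59 CPM in liver against 23.5 and 25.6 CPM in spleen and Id3 by 0.95 on the log2 scale. Il7r, the receptor for the survival cytokine IL-7, was at 254 and 307 CPM in liver and 365 and 382 CPM in spleen, a log2 difference of -0.42 ± 0.08 (adjusted p = 0.00014). With the GC correction its difference turned to 0.21 (adjusted p = 0.0043).

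Th1 and cytotoxic genes were higher in liver in most cases. Of 24 tested, 17 rose and 0 fell, with a median log2 difference of 0.63. The number that fell was 2 with the GC correction and 1 without liver replicate 2. Ccl5, a chemokine of effector T cells, was at 1843 and 1479 CPM in liver and at 282 and 293 CPM in spleen, a log2 difference of 2.53 ± 0.13 (adjusted p = 6.3e-13). Ccl3, another chemokine of effector cells, was at 157 and 157 CPM in liver and 32.2 and 28.9 CPM in spleen. The perforin gene Prf1 was at 47.01 and 43.9 CPM in liver and 15.9 and 15.8 CPM in spleen, and Klrk1, encoding the activating receptor NKG2D, rose by a log2 difference of 2.09. Natural killer and CD8 T cell genes, given below, were higher in liver as well, and their part in this was not tested.

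Ifng and its regulator Tbx21 rose by less. Ifng was at 246 and 259 CPM in liver and at 155 and 169 CPM in spleen, a log2 difference of 0.64 ± 0.08 (adjusted p = 2.8e-07). Tbx21, encoding the Th1 factor T-bet, was at 186 and 170.3 CPM in liver and 122 and 107 CPM in spleen, and the granzyme gene Gzmb at 157 and 146 CPM in liver and 101 and 97.4 CPM in spleen. The organs did not overlap for any of these 3, as for 75.2% of all genes. Il18r1, a receptor chain for IL-18, did not pass, at 266 and 301 CPM in liver and 299 and 316 CPM in spleen, except without liver replicate 2 (log2 difference -0.21, adjusted p = 0.018).

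Th2 genes were lower in liver in most cases. Of 12 tested, 9 fell and 1 rose, with a median log2 difference of -0.92. Il13 was at 4.01 and 2.91 CPM in liver and 11.2 and 14.8 CPM in spleen. Areg, encoding the tissue-repair factor amphiregulin, was at 1.69 and 2.36 CPM in liver and 20.04 and 17.1 CPM in spleen, and Il1rl1, the receptor for IL-33, at 27.6 and 35.97 CPM in liver and 68.1 and 69.7 CPM in spleen. Gata3, the factor that defines the lineage, was the gene that rose, at 249 and 235 CPM in liver and 109.7 and 117 CPM in spleen.

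Th17 and regulatory T cell genes gave no single direction. Of 11 Th17 genes 4 rose and 4 fell, and 2 fell without liver replicate 1. The factor gene Rora fell to 229 and 289.8 CPM in liver against 418 and 437 CPM in spleen, and Il23r, the receptor for IL-23, was at 1.12 and 1.31 CPM in liver and 4.77 and 5.49 CPM in spleen. Of 16 regulatory T cell genes 5 rose and 5 fell. Foxp3, which defines these cells, was at 4.21 and 4.97 CPM in liver and 4.25 and 3.59 CPM in spleen and did not pass (adjusted p = 0.31). Ctla4 fell to 109 and 134 CPM in liver against 378 and 401 CPM in spleen, and Ikzf2, encoding Helios, fell to 56 and 71.4 CPM in liver against 237 and 242 CPM in spleen.

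Of 17 genes of inhibitory receptors and exhaustion 10 rose and 6 fell, with a median log2 difference of 0.26. Lag3, a receptor for class II MHC, was at 244 and 235 CPM in liver and 98.8 and 96.5 CPM in spleen. Ctla4 and Btla were among the 6 that fell.

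Among cytokine genes 9 of 25 rose and 12 fell. Tgfb1, encoding transforming growth factor beta 1, was at 267 and 258 CPM in liver and at 66.7 and 62.4 CPM in spleen, a log2 difference of 2.02 ± 0.08 (adjusted p = 6.2e-15), and at 314 and 302 CPM in lung. Pmepa1, a target and brake of that pathway, rose too, at 32.7 and 27.9 CPM in liver against 5.44 and 5.49 CPM in spleen, while the receptor gene Tgfbr1 fell by 1.18 on the log2 scale. Tnf rose to 180.5 and 177 CPM in liver against 72.2 and 60.8 CPM in spleen, and its relative Lta rose by a log2 difference of 1.49. Csf2, encoding GM-CSF, was at 13.5 and 12.9 CPM in liver and 8.86 and 7.06 CPM in spleen.

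Receptors of the common gamma chain and their feedback genes rose in 9 of 16 cases and fell in 5. The feedback inhibitors that STAT5 induces rose, with Cish at 349 and 335 CPM in liver against 124 and 130 CPM in spleen and Socs2 at 45.7 and 47.4 CPM in liver against 22.1 and 18.8 CPM in spleen. Socs3, an inhibitor of IL-6 family signals, fell to 73.01 and 71.3 CPM in liver against 235 and 226 CPM in spleen. In the TNF family 9 of 20 genes rose and 4 fell, with Tnfsf4, encoding OX40 ligand, at 11.02 and 10.4 CPM in liver against 4.32 and 3.92 CPM in spleen. The number that fell was 1 without spleen replicate 1 and 2 without liver replicate 2 or without spleen replicate 2.

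Immediate early genes, which cells switch on within minutes of a stimulus, divided within 1 family. Of 17 genes of the AP-1 group 5 rose and 9 fell. Jun was at 605 and 679.7 CPM in liver and 229 and 232 CPM in spleen, and Fosb at 402 and 552 CPM in liver and 224 and 202 CPM in spleen. Fos did not pass, at 811 and 900.2 CPM in liver and 825 and 789.6 CPM in spleen. Atf3, a stress-induced repressor, fell furthest, at 1.17 and 2.32 CPM in liver and 51.6 and 54.8 CPM in spleen, a log2 difference of -5.00 ± 0.18 (adjusted p = 9.4e-16). Atf3 was at 44.7 and 55.1 CPM in lung, so liver stood below both other organs. Maff, a small Maf partner, fell to 1.69 and 3.62 CPM in liver against 33.3 and 29.8 CPM in spleen.

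Of 8 Egr and Nr4a genes with their partners, which T cell receptor signals induce, 6 rose and 1 fell. Egr1 was at 421 and 497 CPM in liver and at 121 and 120.2 CPM in spleen, and Myc at 59.1 and 54.8 CPM in liver and 15.2 and 12.4 CPM in spleen. With the GC correction 3 rose and 0 fell, and Nr4a1 was at 0.06. The gene that fell, Nr4a3, lost its call with DESeq2 (-0.43, adjusted p = 0.1). Its call was also lost without liver replicate 1 (-0.23), without spleen replicate 1 (-0.36) and without spleen replicate 2 (-0.41).

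Feedback genes of the MAP kinase pathway fell in 7 of 13 cases and rose in 2, with a median log2 difference of -0.62. Dusp5 and Dusp16, phosphatases that switch off the kinases, fell by 1.09 and by 1.22 on the log2 scale. Of 15 NF-kappaB subunits and inhibitors 6 rose and 6 fell. Rela, the main activating subunit, rose by a log2 difference of 0.87. Tnfaip3, encoding the inhibitor A20, was at 629 and 751 CPM in liver and at 2054 and 1998 CPM in spleen, and Nfkbiz, encoding a nuclear regulator of NF-kappaB, at 89.4 and 106 CPM in liver and 303 and 285 CPM in spleen.

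Heat shock chaperone genes were lower in liver in most called cases. Of 19 tested, 10 fell and 3 rose against spleen, and the 16 with a mean of at least 1 CPM in the higher organ had a median log2 difference of -0.34. The summed level of the list had the opposite order, at 4193 and 4220 CPM in liver and 3654 and 3832 CPM in spleen. Hspa1a, an inducible HSP70 gene, was at 3.69 and 3.54 CPM in liver and 10.1 and 10.5 CPM in spleen, and at 1076 and 1193 CPM in lung. Reads of Hspa1a and of its near-identical copy Hspa1b may be split between them, so the level of either is uncertain. Dnaja1, a partner of HSP70, was at 29.9 and 36.1 CPM in liver and 68.2 and 75.9 CPM in spleen. Bag3 and Hsp90ab1 rose, with Bag3, another HSP70 partner, at 43.95 and 34.6 CPM in liver against 18.99 and 15.8 CPM in spleen.

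Heat shock factor 1 binds repeats of a short element, searched here as GAANNTTC, which reads the same on both strands. The windows ran from 250 bases before to 50 bases after the RefSeq start (GRCm38.p6). Of 14 list genes with a promoter window 8 held the element (57.1%), against 2442 of 27025 genes in all (9.04%). It was found for 6 of the 9 such genes that fell. These are not all separate promoters, because the windows of Hspd1 and Hspe1 overlap and Hspa1a and Hspa1b are near-identical copies. Dnaja1 (chr4:40722218-40722517, plus strand), which fell, and Bag3 (chr7:128523333-128523632, plus strand), which rose, are shown because each holds 1 match, in capitals. A match is a description of letters, not a bound site.
Dnaja1: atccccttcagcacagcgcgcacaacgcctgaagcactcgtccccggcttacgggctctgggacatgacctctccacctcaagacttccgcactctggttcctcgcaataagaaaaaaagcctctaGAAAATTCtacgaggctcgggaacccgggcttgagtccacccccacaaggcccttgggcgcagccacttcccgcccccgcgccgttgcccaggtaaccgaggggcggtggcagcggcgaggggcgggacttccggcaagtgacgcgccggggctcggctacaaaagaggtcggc
Bag3: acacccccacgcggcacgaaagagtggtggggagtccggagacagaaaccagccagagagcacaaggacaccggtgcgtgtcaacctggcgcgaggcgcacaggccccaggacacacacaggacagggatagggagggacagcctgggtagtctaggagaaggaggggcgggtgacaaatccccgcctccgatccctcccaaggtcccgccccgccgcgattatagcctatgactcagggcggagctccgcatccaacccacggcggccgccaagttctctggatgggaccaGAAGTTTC

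Interferon-stimulated genes showed no common direction against spleen. Of 26 tested, 7 rose and 10 fell, with a median log2 difference of 0.02, and the number that fell was 5 without spleen replicate 1. Isg15, a ubiquitin-like modifier, was at 33.6 and 27.5 CPM in liver and 16.9 and 15.5 CPM in spleen. Zbp1, a sensor of Z-form nucleic acid, was at 201 and 189 CPM in liver and 88.9 and 85.7 CPM in spleen. Rsad2, encoding the antiviral enzyme viperin, was at 17.5 and 17.98 CPM in liver and 35.9 and 40.3 CPM in spleen, the opposite order. The response element of these genes was searched as TTTC followed by 2 free bases and TTTC again, on both strands. Of 19 list genes with a promoter window 12 held it (63.2%), against 1079 of all 27025 genes (3.99%). It was found for 5 of the 8 such genes that fell and for 2 of the 4 that rose. Isg15 (chr4:156200769-156201068, minus strand), with 3 overlapping matches in capitals, and Rsad2 (chr12:26456403-26456702, minus strand), with 1, are shown as a pair that moved in opposite directions.
Isg15: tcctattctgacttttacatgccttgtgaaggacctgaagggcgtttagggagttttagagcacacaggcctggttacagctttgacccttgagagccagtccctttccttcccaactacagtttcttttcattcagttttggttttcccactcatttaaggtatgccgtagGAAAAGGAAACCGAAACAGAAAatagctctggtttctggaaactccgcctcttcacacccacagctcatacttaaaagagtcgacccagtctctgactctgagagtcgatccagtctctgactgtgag
Rsad2: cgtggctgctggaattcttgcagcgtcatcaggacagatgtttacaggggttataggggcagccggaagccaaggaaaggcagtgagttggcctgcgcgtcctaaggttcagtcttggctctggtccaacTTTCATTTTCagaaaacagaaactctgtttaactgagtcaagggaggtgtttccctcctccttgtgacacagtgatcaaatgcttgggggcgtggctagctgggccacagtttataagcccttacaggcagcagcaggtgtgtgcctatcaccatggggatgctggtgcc

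**Figure D3:**
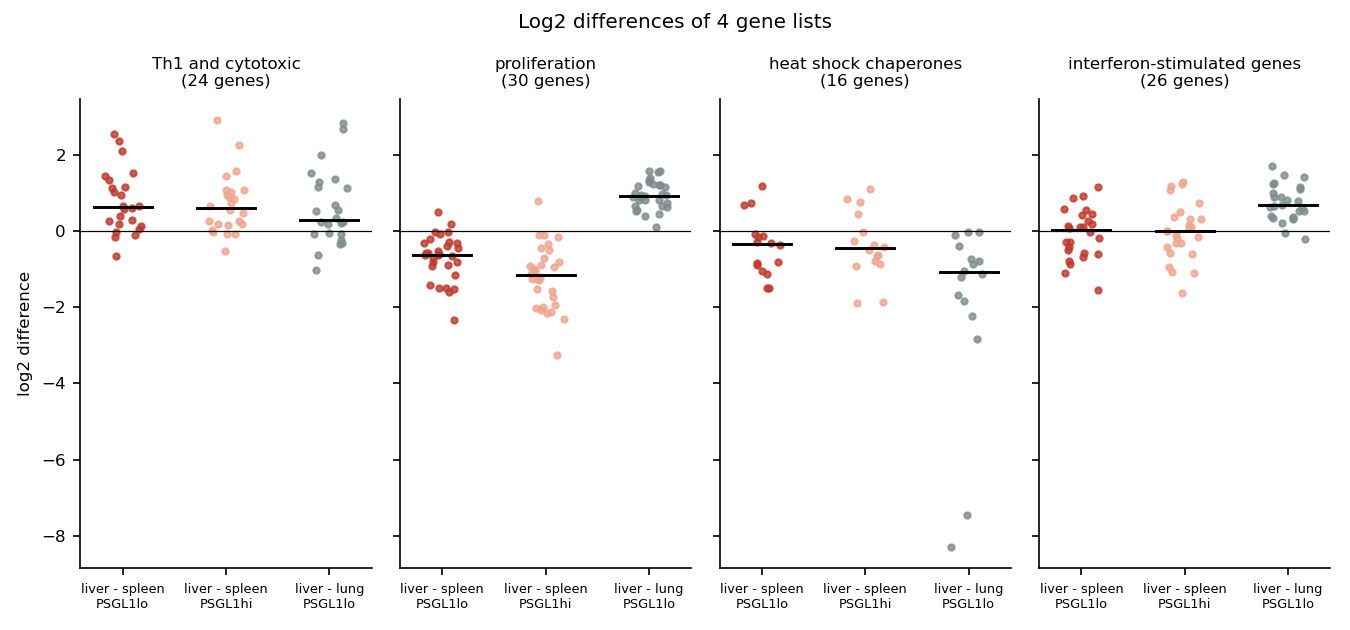
Log2 differences of single genes with at least 1 CPM (points) and their median (line) for 4 gene lists, in liver against spleen PSGL1lo, liver against spleen PSGL1hi and liver against lung PSGL1lo. Proliferation genes have medians of -0.63 and -1.16 against spleen in PSGL1lo and PSGL1hi cells and of 0.92 against lung, and the heat shock genes have a median of -1.08 against lung.

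Proliferation genes were lower in liver than in spleen in most cases. Of 30 tested, 25 fell and 1 rose, with a median log2 difference of -0.63, against 28% of all genes lower. Ccna2, a cyclin of DNA replication, was at 40.5 and 39.9 CPM in liver and 124 and 119 CPM in spleen, a log2 difference of -1.60 ± 0.12 (adjusted p = 5.1e-10). Ccnb1, the cyclin of mitosis, was at 4.92 and 3.37 CPM in liver and 12.8 and 11.2 CPM in spleen, and Bub1, a kinase of the spindle checkpoint, at 9.91 and 10.2 CPM in liver and 28.7 and 29.6 CPM in spleen. The gene that rose, E2f1, lost its call with the GC correction (0.15, adjusted p = 0.39). Erythroid genes, given below, were lower in liver as well, and their part in this was not tested.

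Metabolic genes changed in both directions. Of 21 glycolysis and hypoxia genes 11 fell and 5 rose, and the number that rose was 3 without spleen replicate 1 or without spleen replicate 2 and 2 with the GC correction. With DESeq2, 3 of these genes rose. Hif1a, the hypoxia factor, was at 576 and 661 CPM in liver and 1281 and 1271 CPM in spleen. Of 23 genes of oxidative phosphorylation 7 rose and 3 fell, with 3 that rose without liver replicate 1, 11 without liver replicate 2 and 8 that fell with the GC correction. Of 19 genes of cholesterol and fatty acid synthesis 9 rose and 5 fell. Srebf2, a factor that switches on cholesterol synthesis, was at 235 and 234 CPM in liver and 95.8 and 88.2 CPM in spleen. The cholesterol exporter genes Abca1 and Abcg1 fell, with Abca1 at 6.79 and 9.10 CPM in liver against 96.9 and 98.5 CPM in spleen and Abcg1 at 108 and 105 CPM in liver against 282 and 266 CPM in spleen. Macrophages also make Abca1, and their markers, given below, were lower in liver.

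Class I MHC and loading genes rose in 9 of 15 cases and fell in 2. B2m, the light chain of class I, was at 4517 and 4389 CPM in liver and 2828 and 2696 CPM in spleen. With the GC correction 5 rose and 4 fell. The number that rose was 5 without liver replicate 1, and the number that fell was 1 without liver replicate 1, without liver replicate 2 or without spleen replicate 2 and 0 without spleen replicate 1. The H2-Q and H2-T genes are near-identical copies whose reads may be shared, so single members are not described.

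With markers of other cells left out of the ranking, the largest differences of single genes lay mostly outside these lists. Larger differences among those markers, such as that of Alb, are given below. Among genes with a mean of at least 20 CPM in the higher organ, the 12 with the largest increase in liver included Adgrg1, an adhesion receptor of cytotoxic lymphocytes, at 83.03 and 73.9 CPM in liver against 6.18 and 5.95 CPM in spleen. Mmp9, a gelatinase, was at 123 and 108 CPM in liver, 8.69 and 7.64 CPM in lung and 8.57 and 10.3 CPM in spleen, so among PSGL1lo cells it was high in liver. Prrt1, in contrast, was as high in lung as in liver, at 24.9 and 22.5 CPM in liver, 22.5 and 23.8 CPM in lung and 0.596 and 1.31 CPM in spleen.

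Of the 12 with the largest decrease, Ttn, encoding titin, had the highest spleen level, at 21.9 and 31.2 CPM in liver, 58.2 and 43.3 CPM in lung and 783 and 777 CPM in spleen. Wdfy4, which dendritic cells need for cross-presentation, was at 1.15 and 0.547 CPM in liver and 50.6 and 47.97 CPM in spleen. Irs2, an adaptor of the insulin and IL-4 receptors, was at 3.87 and 4.72 CPM in liver and 79.3 and 64.2 CPM in spleen. Abca13 was at or below the floor of 3 counts in liver and at 30.1 and 31.6 CPM in spleen, and no fold is given for it. Mrc1, the mannose receptor of macrophages, was at 0.974 and 0.59 CPM in liver, 33.8 and 51.4 CPM in lung and 42.6 and 41.4 CPM in spleen, and the macrophage genes Sirpa and Ccl6 were among the 12 as well.

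Markers of other cells differed between the organs, and their part in the results above was not tested. Of 35 hepatocyte genes tested 28 rose in liver and 5 fell, and 17 of the 35 had no count in either spleen library. Alb, encoding albumin, was at 38.8 and 31.8 CPM in liver and 0.149 and 0 CPM in spleen. Fgb, encoding a fibrinogen chain, was at 6.13 and 6.11 CPM in liver and had no count in spleen, at least 29.2-fold higher against a floor of 3 counts per library, although its call was lost with DESeq2 (adjusted p = 0.17). Over the 66 hepatocyte genes in the file the summed level was 247 and 195 CPM in liver and 197 and 188 CPM in spleen, with 12 and 9 genes at 0 in liver and 48 and 51 at 0 in spleen. Of 20 macrophage and Kupffer cell genes 2 rose and 15 fell, and the sum was 278 and 236 CPM in liver against 593 and 583 CPM in spleen. In this list 1 gene rose with DESeq2, without the filter or with only the groups compared in the fit. Adgre1, encoding F4/80, was at 0.658 and 0.169 CPM in liver and 32.5 and 28.5 CPM in spleen. The genes that rose were Clec4f, at 2.55 and 0.758 CPM in liver and 0 and 0.0654 CPM in spleen, and Vsig4, at 0.401 and 0.421 CPM in liver and 0 and 0.0654 CPM in spleen, both known from Kupffer cells, and 1 rose without liver replicate 1, without spleen replicate 1 or without spleen replicate 2.

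Of 12 dendritic cell genes 0 rose and 7 fell, and the sum was 211 and 170.4 CPM in liver against 958 and 895 CPM in spleen. The class II gene H2-Aa was at 10.5 and 7.79 CPM in liver and 209 and 193 CPM in spleen. All 6 erythroid genes tested fell, with a sum of 52.97 and 73.96 CPM in liver against 231 and 236 CPM in spleen. Monocyte and neutrophil genes rose in 12 of 15 cases and fell in 2, with a sum of 298 and 208 CPM in liver against 122 and 127 CPM in spleen. They rested on liver replicate 1, where S100a9, a neutrophil protein gene, was at 40.7 CPM, against 7.71 CPM in liver replicate 2 and 4.02 and 5.03 CPM in spleen. Without liver replicate 1, 2 of these genes rose, and 7 did without spleen replicate 1 or without spleen replicate 2. The number that fell was 1 without liver replicate 2 and 1 without spleen replicate 1. Both CD8 genes rose, with a sum of 31.5 and 28.01 CPM in liver against 11.8 and 12.3 CPM in spleen, and of 9 natural killer cell genes 6 rose and 2 fell. Of 10 B and plasma cell genes 0 rose and 4 fell.

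**Figure D4:**
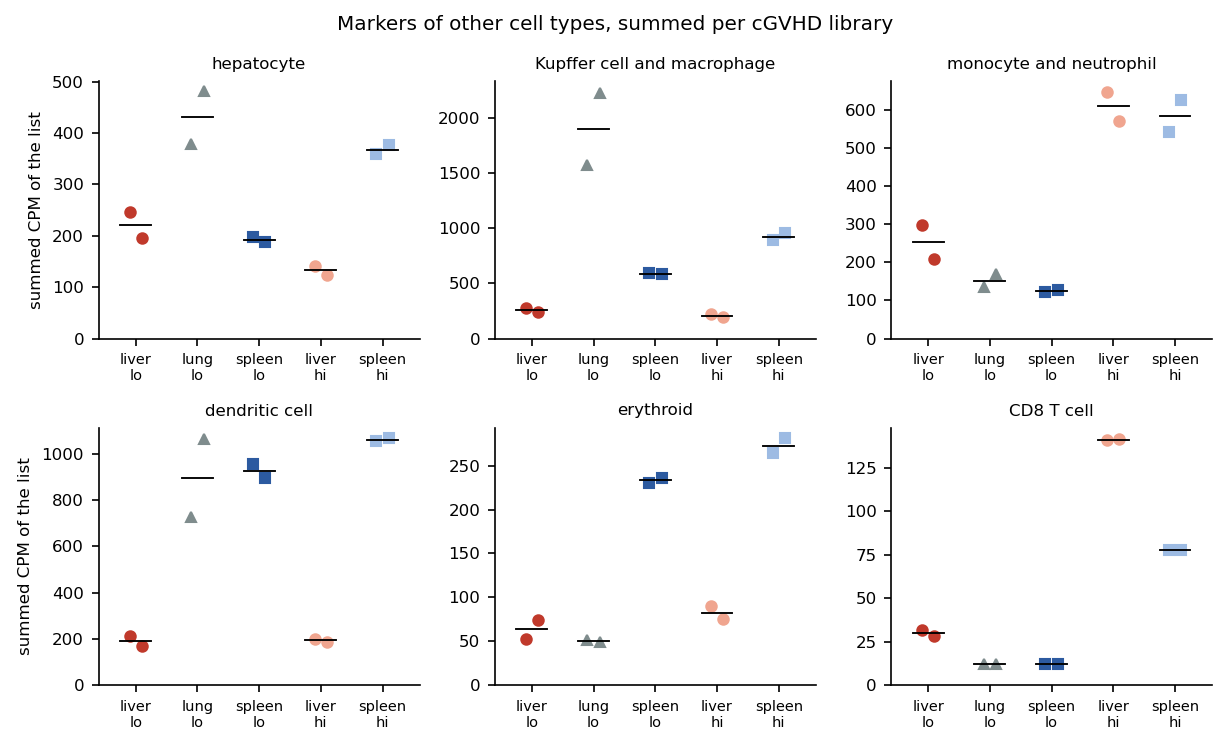
Summed CPM of 6 marker lists of other cell types in each cGVHD library of liver, lung and spleen PSGL1lo and of liver and spleen PSGL1hi cells. Macrophage sums in PSGL1lo cells are 278 and 236 CPM in liver against 593 and 583 CPM in spleen, and the monocyte and neutrophil panel shows the liver PSGL1lo libraries apart from each other at 298 and 208 CPM.

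Whether the organ difference depended on PSGL1 was tested as the liver-to-spleen difference of PSGL1lo cells minus that of PSGL1hi cells. Of the 13531 genes 910 passed (6.73%), 340 of them higher in PSGL1lo cells (2.51%) and 570 lower (4.21%). Each fit with a library left out had 1 library in a group. These counts then changed in both directions, and the reason was not tested. They stayed within 1.5 times of those above only without spleen PSGL1hi replicate 1. They were 897 higher and 1552 lower without liver PSGL1lo replicate 2, 160 and 252 without liver PSGL1lo replicate 1, 163 and 324 without spleen PSGL1lo replicate 1, and 125 and 197 without spleen PSGL1lo replicate 2. They were 151 and 263 without liver PSGL1hi replicate 1, 117 and 199 without liver PSGL1hi replicate 2, and 165 and 221 without spleen PSGL1hi replicate 2.

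On the log2 scale the organ difference of both resident integrin genes was larger in PSGL1lo cells, while liver PSGL1hi cells had the highest level of both. In PSGL1hi cells Itga1 was at 118 and 123 CPM in liver and 52.8 and 49.6 CPM in spleen, a log2 difference of 1.23, and the difference of PSGL1lo over PSGL1hi cells was 0.91 ± 0.17 (adjusted p = 0.0031). Itgae was at 48.98 and 50.4 CPM in liver and 39.5 and 37.6 CPM in spleen PSGL1hi cells, and its difference of PSGL1lo over PSGL1hi cells was 0.95 ± 0.14 (adjusted p = 0.00028). Spleen PSGL1lo cells, at 11.8 and 12.6 CPM, had the lowest Itgae level of the 4 groups. S1pr1 was lower in liver in both populations, with a difference of PSGL1lo over PSGL1hi cells of -0.79 ± 0.13 (adjusted p = 0.00086). Klf2 was at 158 and 162 CPM in liver and 119.8 and 109 CPM in spleen PSGL1hi cells, the opposite order to that in PSGL1lo cells, with a difference of -1.01 ± 0.19 (adjusted p = 0.003).

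Of 28 follicular helper genes 2 had a higher difference in PSGL1lo cells and 6 a lower one, against 2.51% and 4.21% of all genes. Tcf7 was at 276 and 273 CPM in liver and 56.95 and 56.7 CPM in spleen PSGL1hi cells, a log2 difference of 2.27, which exceeded that in PSGL1lo cells (difference of PSGL1lo over PSGL1hi cells -0.99 ± 0.11, adjusted p = 1.5e-05). Il21 was lower in liver by more in PSGL1lo cells (difference of PSGL1lo over PSGL1hi cells -0.58 ± 0.12, adjusted p = 0.0076). Penk, encoding proenkephalin, the precursor of opioid peptides, was at 389 and 356 CPM in liver and 64.1 and 65.1 CPM in spleen PSGL1lo cells, and at 100.2 and 105 CPM in liver and 77.2 and 68.7 CPM in spleen PSGL1hi cells (difference 2.04 ± 0.18, adjusted p = 3e-06). The chemokine gene Ccl1 was at 40.4 and 41.8 CPM in liver and 12.5 and 14.4 CPM in spleen PSGL1lo cells, and at 22.6 and 30.4 CPM in liver and 34.1 and 39.03 CPM in spleen PSGL1hi cells, so the organs were in opposite order. Of the 30 proliferation genes 13 had a higher difference in PSGL1lo cells and 0 a lower one, against 2.51% and 4.21% of all genes. Their medians of liver over spleen were -0.63 in PSGL1lo and -1.16 in PSGL1hi cells.

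**Figure D5:**
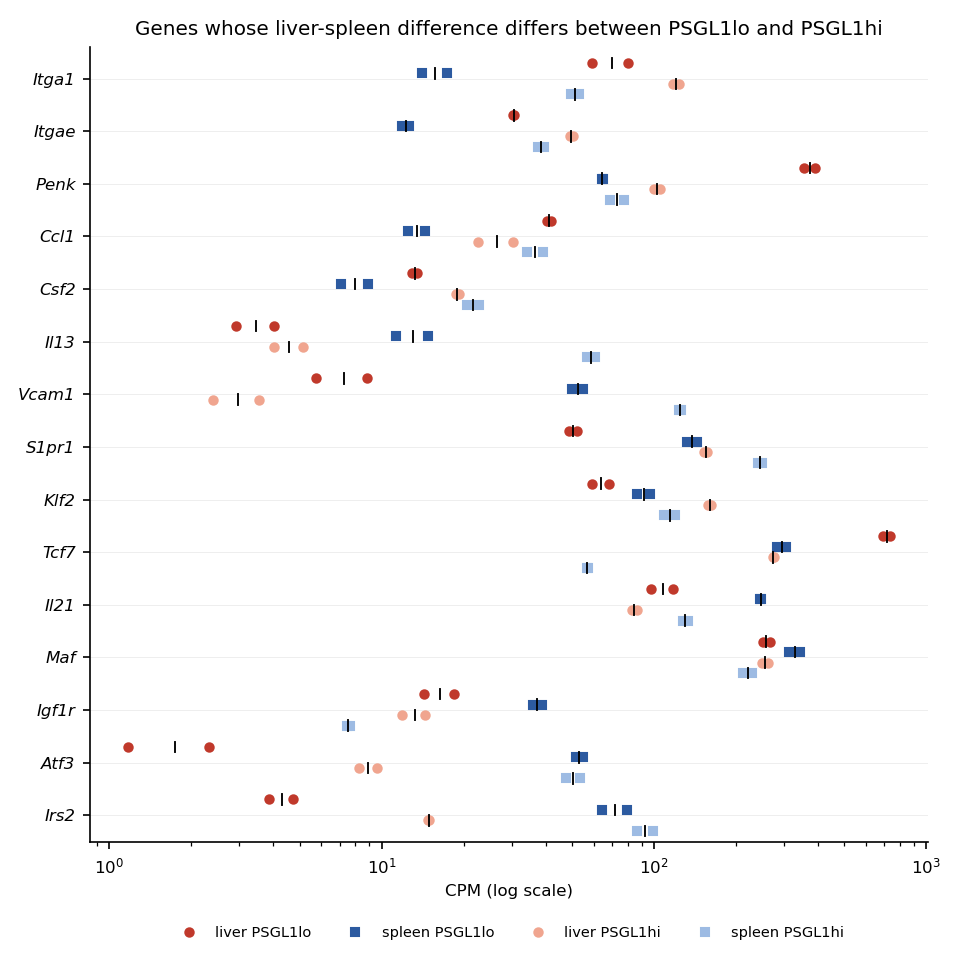
CPM on a log axis of genes whose liver-to-spleen difference in PSGL1lo cells departed from that in PSGL1hi cells, in each library of the 4 groups, with a bar at each group mean. Penk is highest in the liver PSGL1lo libraries, at 389 and 356 CPM, and lies at 64.1 and 65.1 CPM in spleen PSGL1lo cells.

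Liver and lung libraries carry library numbers of 1 run, so their PSGL1lo cells can be set side by side without the change of run described above, although the name of liver replicate 1 stands apart within it. Of the 13531 genes 5460 passed (40.4%), 2789 higher (20.6%) and 2671 lower (19.7%) in liver, and without liver replicate 1 the counts were 2403 and 2065. This comparison shares the liver libraries with that against spleen, so its values are given beside it and not as separate support. S1pr1, Klf2 and Ccr7 had log2 differences of liver over lung of -1.64, -1.49 and -2.20, and Cd69 one of -0.81. Itga1 was higher in liver than in lung (0.69 ± 0.11, adjusted p = 4.8e-05), as was Cxcr6 (0.50 ± 0.08, adjusted p = 2.4e-05), while Itgae did not pass (-0.11 ± 0.09, adjusted p = 0.37). Gzmb was at 157 and 146 CPM in liver and 15.2 and 27.1 CPM in lung, a log2 difference of 2.84 ± 0.16 (adjusted p = 6.3e-12). The granzyme gene Gzma was at 68.1 and 56.5 CPM in liver and 6.11 and 13.8 CPM in lung. Both granzyme genes stood with Cd7, Mmp9 and the Notch target Dtx1 among the 8 genes ranked highest over lung. That ranking left out markers of other cells and kept only genes called between liver and spleen PSGL1lo cells.

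In the same ranking the 8 genes lowest in liver against lung were Hspa1a and 7 others. These included Il1a, Mmp12, Cxcl2 and Slc7a2, genes of inflammatory macrophages. The summed macrophage markers were 278 and 236 CPM in liver and 1573 and 2230 CPM in lung, and their part in these differences was not tested. Of 26 interferon-stimulated genes 22 rose and 1 fell in liver against lung, and of 30 proliferation genes 29 rose and 0 fell, against 20.6% of all genes higher. Tcf7 and Bcl6 were lower in liver than in lung, with log2 differences of -1.08 ± 0.07 and -1.33 ± 0.11, while Il21 was higher (0.62 ± 0.09, adjusted p = 9.4e-06).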

How the data were processed

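Per the submitters' processing notes reads were aligned to mm9 with TopHat2 2.0.8 and counted with HTSeq, and the authors deposited raw counts per gene for all 14 libraries. Per the labels' protocols the RNA came from a Qiagen RNeasy extraction and went into Kapa mRNA HyperPrep libraries. No annotation or strand setting is stated in the sources used here, so overlapping genes cannot be told apart. The file holds 25017 entries, 26 of them with date-like names from spreadsheet conversion.

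From these counts a quasi-likelihood model was fitted with edgeR 4.0.16 (limma 3.58.1, R 4.3.3) over all 14 libraries in 7 groups without a block. Scaling was by TMM, genes with low counts were removed by edgeR's filter, and p-values were adjusted by Benjamini-Hochberg over all genes. The filter left 13780 genes and 7 residual degrees of freedom. The 1394 histone and small RNA entries, 249 of which passed the filter, stayed in the fit and were then left out, which gave 13531 genes. The comparison with a 1.5-fold change used edgeR's test against that threshold.

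The genes, lists and comparisons were chosen with earlier results of these data known. Genes named with values were those of a core panel, up to 4 called members of each list and direction with the largest change and at least 5 CPM, the 12 highest and 12 lowest changes with at least 20 CPM and no overlap between organs, and the 8 highest and 8 lowest differences by PSGL1 and against lung. The 12 and the 8 highest and lowest were ranked without the markers of other cells. The 8 were ranked only among genes called between liver and spleen PSGL1lo cells. Clec4f and Vsig4 were added after their values were seen. Some genes that the rule names are not reported here. Promoters were taken from RefSeq (GRCm38.p6), another build than that of the counts, and motifs were searched as exact letters. Alternatives were RLE scaling, TMM without markers of other cells, no filter, dropping histone and small RNA genes before the fit, only the groups compared, a replicate block, DESeq2 1.42.0, leaving out each library, and, chosen after seeing the data, an offset that removes the trend with GC content, for which 13320 genes (98.4%) had a value.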

Additional observations from a re-analysis of the deposited data

Results flagged for a closer look

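For the genes below the liver-to-spleen difference in PSGL1lo cells departed from that in PSGL1hi cells by the test of the difference itself. The values are log2 differences of PSGL1lo over PSGL1hi cells, and a positive value means that liver over spleen was higher in PSGL1lo cells. In the core panel they were 0.91 for Itga1, 0.95 for Itgae, 1.80 for Il13 and 0.92 for Csf2. On the negative side they were -0.79 for S1pr1, -1.01 for Klf2, -0.58 for Il21, -0.46 for Cd40lg, -0.99 for Tcf7, -0.57 for Il7r, -0.57 for Rora and -0.56 for Maf. The Cd40lg call was lost without 6 of the 8 libraries, with adjusted p of 0.069 to 0.16, and that of Csf2 without spleen PSGL1lo replicate 2 (0.76, adjusted p = 0.083).

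The ranking of the other genes left out markers of other cells and kept only genes called between liver and spleen PSGL1lo cells. Its highest values were 2.59 for Cyp11a1, 2.59 for Vcam1, 2.31 for Lpl, 2.24 for Chil3, 2.07 for Ccl1, 2.04 for Penk and 1.80 for Ctsl. Cyp11a1 encodes the first enzyme of steroid synthesis and was at 3.12 and 2.15 CPM in liver and 6.55 and 7.38 CPM in spleen PSGL1lo cells, and at 2.52 and 2.90 CPM in liver and 41.8 and 43.7 CPM in spleen PSGL1hi cells. Vcam1, an adhesion molecule of macrophages and endothelium, was at 8.82 and 5.73 CPM in liver and 49.8 and 55.02 CPM in spleen PSGL1lo cells, and at 3.55 and 2.39 CPM in liver and 124 and 126 CPM in spleen PSGL1hi cells. Macrophages also make Vcam1, Lpl, Chil3 and Ctsl. Of 20 macrophage and Kupffer cell genes 5 were higher and 0 lower in this difference, against 2.51% of all genes higher, and their summed level was 278 and 236 CPM in liver and 593 and 583 CPM in spleen PSGL1lo cells, and 224 and 192 CPM in liver and 890.1 and 957 CPM in spleen PSGL1hi cells; their part in these values was not tested. The Chil3 call was lost with DESeq2 (2.11, adjusted p = 0.14), without liver PSGL1lo replicate 1 (1.08) and without liver PSGL1hi replicate 2 (1.52).

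The lowest values of that ranking were -2.76 for Abca13, -2.51 for Atf3, -2.01 for Igf1r, -1.55 for Iqcn, -1.44 for Irs2, -1.38 for Lars2, -1.15 for Wdfy4 and -1.08 for Maff. That of Abca13 is a fitted value with liver PSGL1lo at or below the floor of 3 counts and is no bound. Atf3 was at 8.27 and 9.61 CPM in liver and 47.4 and 53.5 CPM in spleen PSGL1hi cells, so it was lower in liver in both populations and by more in PSGL1lo cells. Igf1r, the receptor for insulin-like growth factor 1, was at 14.3 and 18.4 CPM in liver and 35.8 and 38.7 CPM in spleen PSGL1lo cells, and at 11.9 and 14.5 CPM in liver and 7.63 and 7.43 CPM in spleen PSGL1hi cells. The Maff call was lost without 7 of the 8 libraries and that of Wdfy4 without 5 of them, and that of Iqcn without liver PSGL1hi replicate 2 (-1.27, adjusted p = 0.08). The Lars2 call was lost with DESeq2 (-1.39, adjusted p = 0.2) and without 6 of the 8 libraries, with values from -1.54 to -0.73, and the Abca13 call without 6 of them, with adjusted p of 0.06 to 0.7.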

How the results depend on the processing

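The liver-to-spleen counts of PSGL1lo cells stayed within 1.5 times under every alternative run, with 3395 to 3918 genes higher and 3062 to 3989 lower when 1 library was left out, and 1106 to 1452 higher and 1284 to 2005 lower against a 1.5-fold change. The difference between PSGL1lo and PSGL1hi cells did not: with only its own groups in the fit 222 genes were higher and 344 lower, and leaving out 1 library gave 117 to 897 higher and 197 to 1552 lower. Liver against lung gave 1833 genes higher with only its own groups in the fit. Among the gene lists, 2 circulation and egress genes rose in liver against spleen without a filter. With only the groups compared, 2 Th17 genes, 2 TNF family genes and 1 class I MHC and loading gene fell. Without a filter 1 class I MHC and loading gene fell. Of 413 results on single genes 403 kept direction and side of the threshold with DESeq2, 410 with RLE scaling, 410 with TMM without markers of other cells, 408 without a filter, 411 with histone and small RNA genes dropped, 397 with only the groups compared, and 375 with the GC offset, under which 25 calls were lost with the direction kept. With that offset the sign of the liver-to-spleen difference changed for Il7r (0.21, adjusted p = 0.0043), which stayed called, and for Bcl2a1b (0.06, adjusted p = 0.53) and C1galt1c1 (0.28, adjusted p = 0.11), which lost their calls; the offset removes the trend with GC content by construction, and whether that trend is technical was not tested.

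Replicate numbers are shared by the groups. The deviations of same-numbered liver and spleen PSGL1lo libraries had a correlation of 0.027, between -0.061 and 0.07 over the pairs of groups compared here. With 2 libraries a group this cannot show whether same-numbered libraries came from the same mice. With the replicate number as a block, 3915 genes were higher and 3749 lower in liver than in spleen PSGL1lo cells, 1310 and 1684 against a 1.5-fold change, 306 and 532 for the difference by PSGL1, and 2733 and 2625 against lung. Of the 413 single-gene results 412 kept direction and side of the threshold with the block, and with block and GC offset together Il7r (0.21), Bcl2a1b (0.06) and C1galt1c1 (0.28) changed sign as with the offset alone, Il7r alone still called. With 2 libraries a group and 13283091 counts in the smallest, levels near the floor of 3 counts rest on few counts. Such were those of Abca13 in liver and of Fgb, Clec4f and Vsig4 in spleen PSGL1lo cells. The size of these differences is therefore uncertain, and the Vsig4 level was low in liver as well.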

Other observations

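Gene groups outside the comparisons above had members that changed in liver PSGL1lo cells, in shares to be read against the 29.2% of all genes higher and 28% lower. Each list is small, and none of them is set apart from all genes by a test. Of 14 Bcl-2 family genes 4 rose and 4 fell. Those that rose included Bak1, a pore-forming death effector, at 156 and 140 CPM in liver against 93.9 and 83.3 CPM in spleen. Those that fell included Mcl1, a survival factor of T cells, at 534 and 584 CPM in liver against 856 and 859 CPM in spleen, and Bmf, an activator of cell death, at 4.90 and 3.71 CPM in liver against 10.7 and 9.48 CPM in spleen. Of 15 metallothionein and redox genes 5 rose and 3 fell. Mt1, a metal-binding protein gene, was at 2.03 and 1.35 CPM in liver and 5.21 and 5.75 CPM in spleen, and Txnip, an inhibitor of thioredoxin and of glucose uptake, was at 959.8 and 958 CPM in liver and 516 and 514 CPM in spleen.

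Of 13 genes of the integrated stress response 5 rose and 4 fell. Atf5, a factor of that response, was at 12.5 and 9.52 CPM in liver and 4.54 and 5.68 CPM in spleen, and Asns, which makes asparagine, at 10.6 and 11.6 CPM in liver and 16.4 and 16.6 CPM in spleen. Of 12 purinergic genes 2 rose and 4 fell. Among those that fell were Nt5e, encoding the adenosine-forming enzyme CD73, at 46.5 and 54.8 CPM in liver and 76.05 and 82.7 CPM in spleen, and P2ry10, a lysophospholipid receptor gene, at 98.4 and 115 CPM in liver and 440.5 and 469.6 CPM in spleen.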
